A study of Mus musculus with 2 samples.

Results

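Molecular chaperones of the heat shock families were examined in the cochlea of embryonic mice. A gene was included when its symbol began with Hspa, Hspb, Hspd, Hspe, Hsph, Hsp90, Dnaja, Dnajb, Dnajc or Cct and a digit, or was *Tcp1*, and *Hspbap1* was left out. Of the 12393 genes measured, 70 met this rule. Only probe sets that name 1 gene were used, and a gene with several was read on the one with the highest mean level. Both samples were cochleae of E18.5 C57BL/6J embryos from heterozygous matings, dissected with the otic capsule and without vestibular tissue. One array is titled −/−, for the targeted disruption of *Igf1* that the mutant carries in every cell, and the other is titled +/+, for normal embryos. Each array carried RNA of 8 cochleae by its label, while the study's methods describe 3 pools per genotype of 2 embryos each. The source names and descriptions give the opposite genotypes to the titles, so the genotype of each array is not settled. The arrays are called here by their titles, the −/− titled and the +/+ titled array, and with the genotypes of the source names every difference below would change its sign.

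Chaperones bind proteins that are not yet folded or have lost their fold. HSP70 proteins bind and release short unfolded stretches in cycles driven by ATP, J-domain proteins bring them their clients and start that hydrolysis, and HSP90 acts later on kinases and receptors. The chaperonins HSP60 and CCT fold proteins inside a closed chamber, and small heat shock proteins hold unfolding proteins without ATP. Heat shock factors raise many of these genes through heat shock elements in their promoters. In the inner ear this response is known for protecting hair cells from noise and ototoxic drugs, and in muscle several small heat shock proteins guard the sarcomere and its desmin filaments.

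The values are log2 levels, and a difference is the level on the −/− titled array minus that on the +/+ titled array, less the median of all differences (0.022). Each title has a single array and so no replicate, no difference could be tested, and no p-value is given. The only error at hand is the disagreement between probe sets of the same gene, which read the same RNA on each array. This disagreement leaves out variation between embryos or pools. Its SD was 0.098 for probe sets with a mean level above 7.86, 0.23 between 5.63 and 7.86, and 1.10 below 5.63. These ranges are called the high, middle and low level ranges. A difference of 0.5, or 1.41-fold, served as the limit of size. *Igf1* itself had 11.03 on the −/− titled array and 11.42 on the +/+ titled array on its brightest probe set, and it was lower on the −/− titled array on 3 of 3 probe sets (−0.75 to −0.42). It was thus well measured on both arrays, and which part of the gene its probe sets read was not examined. Of 12 markers of cochlear tissue, *Otor* (12.37 −/− titled, 12.57 +/+ titled) and *Epyc* (11.62 −/− titled, 11.74 +/+ titled) were high on both arrays, while *Otos* and the hair cell factor gene *Pou4f3* were in the low range on both. On the −/− titled array 9 of the 12 were lower, with *Tecta* (−0.52) and *Tectb* (−0.64) past the limit. Of all genes, 8.60% were lower by more than 0.5, and 0.509% of those of the high range, where *Tecta* and *Tectb* lay. Markers of lung epithelium, a tissue outside the cochlea, were lower on the −/− titled array for 8 of 8 genes, with a median of −2.46. Levels of different genes come from different probes and were not set against each other.

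Most chaperones were close to equal on the arrays, and the small heat shock proteins were the family that stood away from zero. Of the 70 genes, 35 were higher and 35 lower on the −/− titled array, with a median difference of 0.00048 against 0.0028 over all genes. In all, 8 of 70 were higher by more than 0.5 (against 12.0% of all genes), and 1 was lower by more than 0.5 (against 8.60%). The share over the limit was therefore near that of all genes. The 8 were *Hspb1*, *Hspb2*, *Hspb3*, *Hspb7*, *Hspb8*, *Dnajc12*, *Dnajc17* and *Hspa1l*, and the 1 was *Dnajc5b*. More than 1 probe set read 42 of the genes, and for 23 of these they differed in sign, so small differences carry no settled direction. Without the 5 small heat shock protein genes, 3 of 65 were higher by more than 0.5 and the median was −0.0083.

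A filter on low values left 44 of the 70 genes, those that had a mean level above the median over all measured genes. Of these 44, 20 were higher and 24 lower, 2 were higher by more than 0.5 (against 1.90% of all genes above the median level), and 0 were lower by more than 0.5 (against 0.646%). Both were small heat shock protein genes, *Hspb1* and *Hspb8*. The remaining 42 genes lay between −0.24 and 0.17, with an SD of 0.097, which is the size of the disagreement between probe sets at high levels. By level range, 1 of 37 genes of the high range was higher by more than 0.5 (against 1.77% of all genes there) and so were 5 of 23 of the middle range (against 4.89%). None of the 37 was lower by more than 0.5 (against 0.509%), and none of the 23 was (against 2.39%). In the low range 2 of 10 were higher by that much (against 30.3%) and 1 of 10 was lower (against 23.6%).

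The families differed in where their genes lay. The 7 genes with the Hspb prefix had a median difference of 0.58. The other families had medians close to zero, namely 0.010 for the 12 genes of HSP70 and HSP110, 0.057 for the 2 of HSP90 and 0.043 for HSP60 and HSP10. The J-domain families had −0.082 for 4 DNAJA genes, −0.0035 for 12 DNAJB genes and −0.024 for 22 DNAJC genes, and the 9 genes of the CCT family had −0.057.

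**Figure D1:**
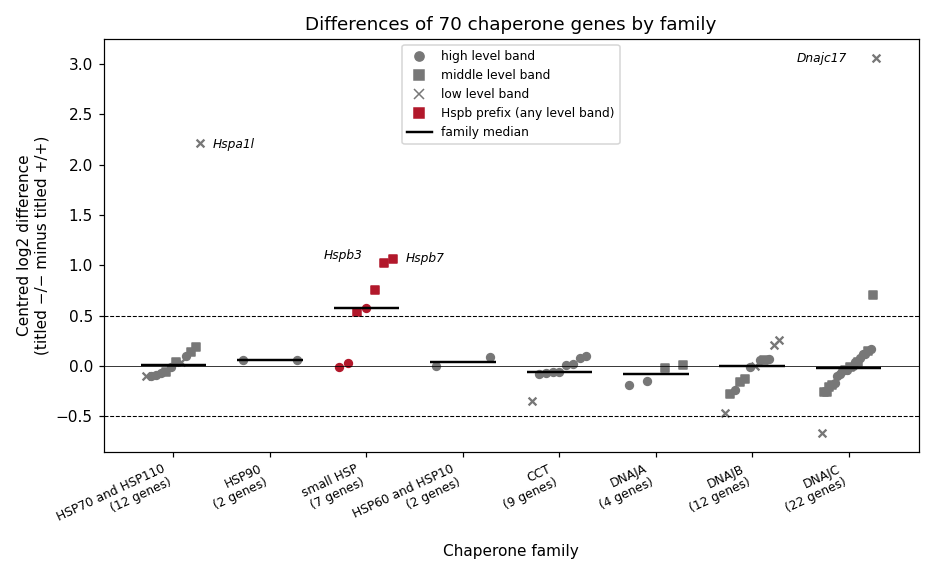
Centred log2 difference (−/− titled minus +/+ titled) of each of the 70 genes, by family, with 1 point per gene, the marker giving its level range, Hspb genes in red and dashed lines at 0.5 in either direction. The Hspb family has a median of 0.58, and the points far from zero in other families are mostly of the low level range.

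Small heat shock proteins share an alpha-crystallin domain and form large assemblies. Of the genes with the Hspb prefix, *Hspb1*, *Hspb2*, *Hspb3*, *Hspb7* and *Hspb8* belong to this class, and 5 of 5 were higher on the −/− titled array by more than 0.5. With the alpha crystallin genes *Cryab* and *Cryaa*, which have the domain but not the prefix, 5 of 7 were, and the median was 0.58. Of all genes, 30.3% of the low, 4.89% of the middle and 1.77% of the high level range were higher by that much. The 5 genes were grouped with earlier results of these data known. Without the alpha crystallins, their differences lay between 0.53 and 1.07 with a median of 0.75. The summed level of the 5 genes was 11.13 on the −/− titled array and 10.48 on the +/+ titled array. All 10 of their probe sets were higher on the −/− titled array, by 0.37 to 3.14, and 9 of 10 by more than 0.5. The cochlea was measured as a whole tissue, so fewer cells of a type and less RNA per cell cannot be told apart.

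*Hspb1*, which encodes the actin-binding and stress-inducible HSP25 and which the study names among its array genes, had a level of 10.60 on the −/− titled array and 10.01 on the +/+ titled array. The difference was 0.58, or 1.49-fold, and the other probe set gave 0.71 (10.40 −/− titled, 9.67 +/+ titled). Both exceed the SD of 0.098 between probe sets at this level. *Hspb1* had the highest difference of the 44 genes above the median level, and in the middle range *Hspb2*, *Hspb3*, *Hspb7* and *Dnajc12* lay above it.

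*Hspb7*, the cardiovascular small heat shock protein of heart and skeletal muscle, had 7.45 on the −/− titled array and 6.36 on the +/+ titled array, a difference of 1.07 or 2.09-fold. Its other probe sets gave 0.50 (6.86 −/− titled, 6.33 +/+ titled) and 3.14 (4.62 −/− titled, 1.46 +/+ titled), so the size differed between probe sets while the direction did not. *Hspb3*, the partner of HSPB2 in a muscle complex, had 6.70 on the −/− titled array and 5.66 on the +/+ titled array, which is 1.02 or 2.03-fold. *Hspb2*, which binds the myotonic dystrophy kinase and lies head to head with *Cryab* in the genome, had 7.18 on the −/− titled array and 6.41 on the +/+ titled array, which is 0.75 or 1.68-fold. Each of *Hspb2* and *Hspb3* was read by a single probe set.

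*Hspb8*, which works with the cochaperone BAG3 in clearing damaged proteins from muscle, had 8.03 on the −/− titled array and 7.47 on the +/+ titled array. This is 0.53 or 1.45-fold, just past the limit, and its other probe sets gave 0.37 and 0.78. *Bag3* did not share this difference, with 7.93 on the −/− titled array and 7.90 on the +/+ titled array (0.012).

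The remaining genes with the prefix encode no small heat shock protein. *Hspb11*, a subunit of the intraflagellar transport machinery, had 8.29 on the −/− titled array and 8.28 on the +/+ titled array (−0.011). *Hspbp1*, a nucleotide exchange factor of HSP70, had 7.91 on the −/− titled array and 7.86 on the +/+ titled array (0.028). Neither moved past the error between probe sets. Of the alpha crystallins, *Cryab* had 10.04 on the −/− titled array and 9.55 on the +/+ titled array (0.47), with 0.42 and −0.017 on its other probe sets. The lens form *Cryaa* was near the bottom of the scale on both arrays (0.034 −/− titled, 0.048 +/+ titled).

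Markers of striated muscle moved with these genes. All 12 markers were higher on the −/− titled array, 11 of 12 by more than 0.5 (against 1.90% of all genes above the median level). Their differences ran from 0.45 for *Acta1* to 1.71 for *Myh7*, with a median of 1.06. Their summed level was 14.65 on the −/− titled array and 13.90 on the +/+ titled array, and the lowest single level was 7.80 on the −/− titled array and 6.51 on the +/+ titled array, so none was near 0. *Des*, which encodes the desmin filament that small heat shock proteins bind, had 8.83 on the −/− titled array and 7.74 on the +/+ titled array (1.06). *Ckm*, the creatine kinase of muscle, had 11.59 on the −/− titled array and 10.86 on the +/+ titled array (0.70). Differences of the 5 small heat shock protein genes lay inside the range of these markers, and the part of muscle tissue in them was not tested.

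**Figure D2:**
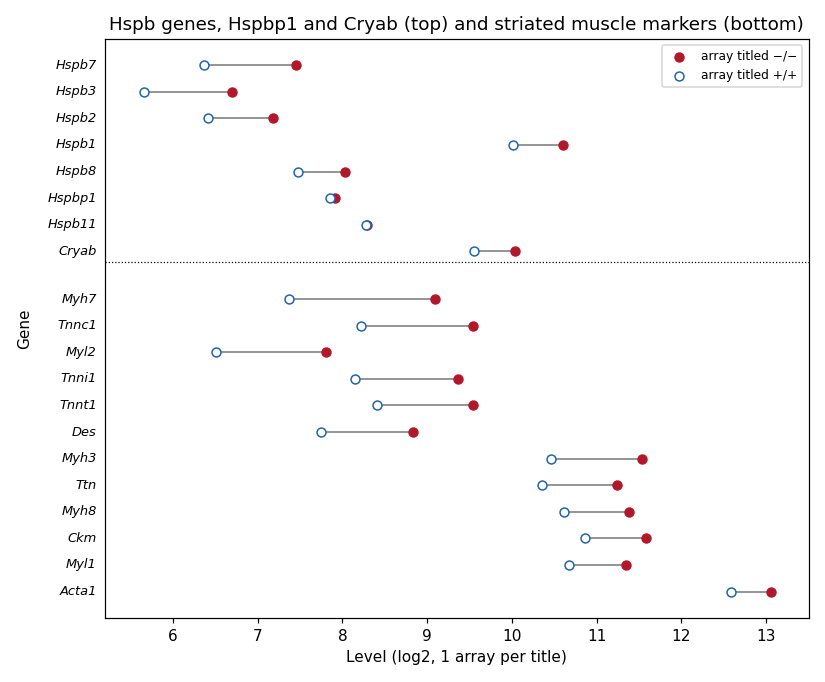
Log2 level of each gene on the −/− titled array (filled) and the +/+ titled array (open), joined by a line, for the Hspb genes, *Hspbp1* and *Cryab* above the dotted line and 12 striated muscle markers below it. The filled point lies to the right for the 5 small heat shock protein genes (0.53 to 1.07) and for 12 of 12 muscle markers (0.45 to 1.71), and the points nearly coincide for *Hspbp1* and *Hspb11*.

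Promoters of *Hspb1*, *Hspb3*, *Hspb7* and *Hspb8* were searched for elements of the heat shock response and for MEF2 sites. A heat shock element was searched for as GAA and TTC in either order with any 2 bases between them, a pattern that reads the same on both strands, in windows of 250 bases before to 50 after each RefSeq start (GRCm38.p6). It was present in 15.1% of 32851 windows and in 25.7% of the 74 windows that 58 of the 70 genes have. *Hspb1* held 2 matches, at −117 and −97 from the start, *Hspb3* held 1 at −224, *Hspb8* held 1 at position 2 after the start, and the letters were not in the window of *Hspb7*. A MEF2 site, the element of the MEF2 factors, was in 3.19% of all windows and in 1 of the 74, that of *Hspb3* at −12. These factors act in muscle and in neurons, and the study found MEF2A and MEF2D protein in auditory neurons and hair cells. The 150 bases before the start are printed for *Hspb1* (chr5:135887769-135887918, plus strand) with the heat shock elements in capitals, for *Hspb3* (chr13:113663677-113663826, minus strand) with the MEF2 site in capitals, and for *Hspb7* (chr4:141420629-141420778, plus strand), which has neither. A match is a run of letters and not evidence of binding.
Hspb1: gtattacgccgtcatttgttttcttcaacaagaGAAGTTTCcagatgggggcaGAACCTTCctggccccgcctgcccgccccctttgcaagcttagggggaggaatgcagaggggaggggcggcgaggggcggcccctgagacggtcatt
Hspb3: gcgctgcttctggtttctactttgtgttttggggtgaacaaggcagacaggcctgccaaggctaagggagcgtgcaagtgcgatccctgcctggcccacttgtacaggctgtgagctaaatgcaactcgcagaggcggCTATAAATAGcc
Hspb7: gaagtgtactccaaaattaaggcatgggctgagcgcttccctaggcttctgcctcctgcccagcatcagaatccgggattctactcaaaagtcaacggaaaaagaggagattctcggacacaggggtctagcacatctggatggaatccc

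The HSP70 family was close to equal on the arrays on the brightest probe set of most genes. *Hspa8*, the constitutive HSC70 of the cytosol, had 11.84 on both the −/− titled array and the +/+ titled array (−0.015). Its other bright probe sets gave 0.0052 and 0.035, while its dimmest gave 1.29 (6.90 −/− titled, 5.58 +/+ titled). *Hspa9*, the mortalin of mitochondria, had 9.22 on the −/− titled array and 9.10 on the +/+ titled array (0.098). Its next probe set gave 0.20, and its dimmest ones gave −0.24 and −0.21. The exchange factors of the HSP110 type shared no direction. *Hsph1* was at −0.069 (8.88 −/− titled, 8.93 +/+ titled) with −0.31 on its dimmer probe set, and *Hspa4* was at −0.091 (8.48 −/− titled, 8.55 +/+ titled) with 0.16 and 0.22 on its others. *Hspa4l*, of the same type, was at 0.14 (6.52 −/− titled, 6.35 +/+ titled) with 0.91 on its dimmer one. On the brightest probe set none of these genes passed the limit.

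The stress-inducible HSP70 genes are a sensitive reading of a heat shock response, because their transcripts are scarce in unstressed cells. *Hspa1b* had 6.88 on the −/− titled array and 6.68 on the +/+ titled array (0.19), with −0.072 and 0.11 on its other probe sets, so its probe sets did not share a direction. *Hspa1a* had 4.43 on the −/− titled array and 4.51 on the +/+ titled array (−0.10), in the range near background. The coding sequences of this pair are nearly identical, and their probe sets may read both. Their promoters are also alike, with 149 of 150 bases equal before the starts and a heat shock element at −104 in each. The stretch of *Hspa1b* (chr17:34959239-34959388, minus strand) is shown with the element in capitals.
Hspa1b: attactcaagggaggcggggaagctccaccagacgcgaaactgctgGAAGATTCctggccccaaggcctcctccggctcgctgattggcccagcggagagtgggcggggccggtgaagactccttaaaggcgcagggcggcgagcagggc

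Other genes of the family include those best known from the testis. *Hspa1l*, one of these, had 2.24 on the −/− titled array and 0 as the listed value of the +/+ titled array, so its difference of 2.21 comes from the lowest end of the scale. *Hspa2*, also known from the testis, had 5.18 on the −/− titled array and 5.13 on the +/+ titled array (0.037). The remaining *Hspa12b* and *Hspa14* were at −0.059 and 0.036.

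HSP90 genes were close to equal on the arrays, with no shared direction among their probe sets. *Hsp90aa1*, the inducible cytosolic form, had 11.63 on the −/− titled array and 11.56 on the +/+ titled array (0.056), and its other probe sets gave −0.045 and 0.027. *Hsp90b1*, the GRP94 of the endoplasmic reticulum, had 10.98 on the −/− titled array and 10.90 on the +/+ titled array (0.058), and its other probe set gave −0.12. With the mean over probe sets the family median was −0.0082, so its direction turned.

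The chaperonins of mitochondria, *Hspd1* for HSP60 and *Hspe1* for its lid HSP10, are transcribed in opposite directions from a shared promoter. *Hspd1* had 10.69 on the −/− titled array and 10.58 on the +/+ titled array (0.088). *Hspe1* had 9.75 on the −/− titled array and 9.73 on the +/+ titled array (−0.0022), and its other probe set gave 0.25. The starts lie 215 bases apart. The stretch between them carries overlapping matches to an element of 3 alternating GAA and TTC units with 2 bases between neighbours. That longer form was in 0.597% of all windows. Among the 58 of the 70 genes with a window, it was in those of *Hspd1*, *Hspe1*, *Hsph1* and *Dnajb6*. On the brightest probe set these 4 genes had differences of −0.069 to 0.088, all smaller than the SD of 0.098 between probe sets. Dimmer probe sets gave 0.25 for *Hspe1*, −0.31 for *Hsph1* and 0.12 to 0.55 for *Dnajb6*. The stretch before *Hspe1* (chr1:55087998-55088147, plus strand) is shown with the overlapping units in capitals.
Hspe1: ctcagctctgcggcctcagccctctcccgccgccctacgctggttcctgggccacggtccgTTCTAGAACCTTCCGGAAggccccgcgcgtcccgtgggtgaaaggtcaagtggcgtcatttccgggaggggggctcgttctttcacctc

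The CCT chaperonin, a ring of 8 different subunits that folds actin and tubulin, was even across its subunits. All 8 subunits of the general ring were in the high level range, between 9.55 and 11.20 on the −/− titled array and between 9.53 and 11.11 on the +/+ titled array. Of these subunits, 4 were higher and 4 lower on the −/− titled array, from −0.079 for *Cct2* to 0.095 for *Cct7*, with an SD of 0.068 that is smaller than that between probe sets of a gene. *Tcp1*, the alpha subunit, had 11.20 on the −/− titled array and 11.11 on the +/+ titled array (0.077), and *Cct8*, the theta subunit, had 9.55 on the −/− titled array and 9.53 on the +/+ titled array (0.0047). *Cct3*, *Cct5* and *Cct6a* were at −0.057, −0.059 and −0.067, and *Cct4* was at 0.021. The testis form *Cct6b* was near background, with 2.32 on the −/− titled array and 2.65 on the +/+ titled array (−0.35).

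J-domain proteins of the DNAJA type, which resemble bacterial DnaJ most closely, were lower on the −/− titled array for 3 of 4 genes. *Dnaja1* had 10.34 on the −/− titled array and 10.46 on the +/+ titled array (−0.15), and *Dnaja2* had 7.95 on the −/− titled array and 8.12 on the +/+ titled array (−0.19). These are cytosolic partners of HSC70, and on the brightest probe set both differences exceed 0.098 but not 0.5. The other probe set gave −0.031 for *Dnaja1* and −0.073 for *Dnaja2*, each smaller than the SD at its level. The mitochondrial *Dnaja3* (−0.017) and the heat-inducible *Dnaja4* (0.0052) were level on their brightest probe sets.

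Among the DNAJB genes, the heat-inducible HSP40 gene *Dnajb1* had 9.16 on the −/− titled array and 9.14 on the +/+ titled array (−0.0083). Its other probe set gave −0.21 (7.97 −/− titled, 8.16 +/+ titled). *Dnajb6*, a suppressor of polyglutamine aggregation, had 9.36 on the −/− titled array and 9.27 on the +/+ titled array (0.069), and *Dnajb4* was at 0.054. The dimmer probe set of *Dnajb4* gave 0.94. On the brightest probe set, the largest shifts with a level out of the low range were negative. They were −0.28 for *Dnajb12* (6.26 −/− titled, 6.52 +/+ titled), −0.24 for *Dnajb9* (8.56 −/− titled, 8.78 +/+ titled) and −0.16 for *Dnajb11* (7.63 −/− titled, 7.77 +/+ titled). All of these encode proteins of the endoplasmic reticulum. *Dnajb2* and *Dnajb5*, both known from neurons, were at −0.13 and 0.060. The other probe sets of *Dnajb5* gave 0.022 and 0.997. *Dnajb7*, which the study names among its array genes, had 0.23 on the −/− titled array and was listed at 0 on the +/+ titled array, so no fold is given. *Dnajb3*, *Dnajb8* and *Dnajb13*, genes of the testis, were in the low range as well, with 0.26, −0.47 and 0.0012.

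The DNAJC genes encode J-domain proteins with the most varied tasks, and 13 of 22 were lower and 9 higher on the −/− titled array. *Dnajc12*, a cochaperone of the aromatic amino acid hydroxylases, had 6.86 on the −/− titled array and 6.13 on the +/+ titled array. Its difference was 0.70, or 1.63-fold, on a single probe set. It was the only one past the limit among the 55 members of the middle and high ranges outside the 5 small heat shock protein genes. Of all genes, 4.89% of the middle range and 1.77% of the high range were higher by more than 0.5. *Dnajc10*, a disulfide reductase of the endoplasmic reticulum, was at 0.17 (9.27 −/− titled, 9.08 +/+ titled) with −0.070 and 0.10 on its other probe sets, and *Dnajc5*, the cysteine string protein of synaptic vesicles, was at 0.12 (9.36 −/− titled, 9.21 +/+ titled). The direction of *Dnajc5* was not shared by 3 of its 5 probe sets (−0.36 to −0.086), and its mean over probe sets was −0.082. *Dnajc7*, which binds HSP70 and HSP90 together, was also at 0.12 (9.65 −/− titled, 9.51 +/+ titled). The endosomal *Dnajc13* was lower with −0.17 (8.45 −/− titled, 8.59 +/+ titled), as was *Dnajc4* with −0.19 (7.24 −/− titled, 7.41 +/+ titled). *Dnajc21*, of ribosome maturation, was at −0.21 on a single probe set. *Dnajc11*, of the mitochondrial contact sites, was at −0.25 and 0.38 on its probe sets, and *Dnajc24*, of diphthamide synthesis, at −0.26 and 0.50, so neither had a settled direction.

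*Dnajc17* and *Dnajc5b* had the extreme values of the whole set, both at low levels. *Dnajc17*, a nuclear protein bound to splicing factors, had 4.58 on the −/− titled array and 1.50 on the +/+ titled array (3.07), while its other probe set was listed at 0 on both arrays. *Dnajc5b*, a form of cysteine string protein from the testis, had 2.29 on the −/− titled array and 2.94 on the +/+ titled array (−0.67). Levels this low had an SD of 1.10 between probe sets of a gene.

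**Figure D3:**
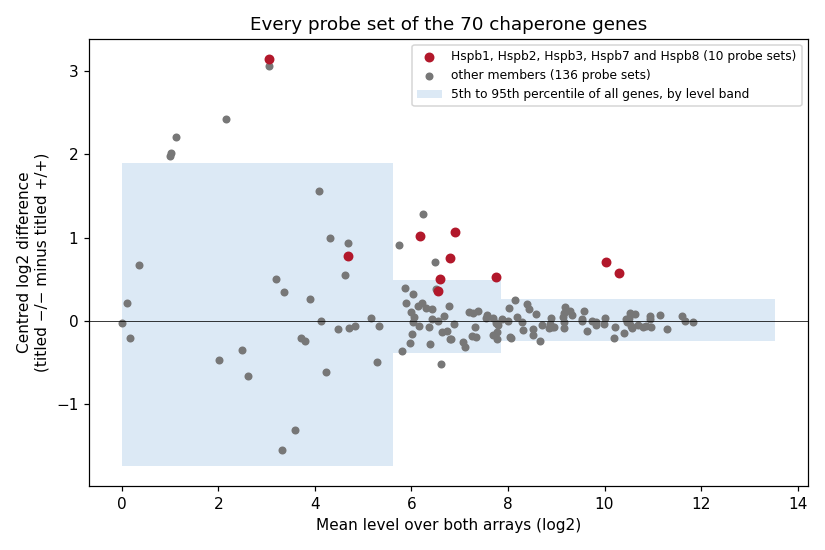
Centred log2 difference (−/− titled minus +/+ titled) of the 146 probe sets of the 70 genes against their mean log2 level, with the 5th to 95th percentile of the differences of all genes shaded in each level range. The shaded range narrows to −0.24 to 0.26 above a level of 7.86, and the probe sets of the 5 small heat shock protein genes lie above zero at every level.

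The chaperones of the endoplasmic reticulum were examined with other genes of its stress response. Of 23 genes, 8 were higher and 15 lower on the −/− titled array, with a median of −0.069 against 0.0028 over all genes. *Hspa5*, the BiP that also senses unfolded proteins, had 11.27 on the −/− titled array and 11.34 on the +/+ titled array (−0.10). *Dnajc3*, the P58IPK inhibitor of the kinase PERK, had 8.83 on the −/− titled array and 8.89 on the +/+ titled array (−0.079) and was lower on 5 of 5 probe sets, by −0.49 to −0.079. The larger shifts in the list outside the 70 genes were those of *Sdf2l1*, a partner of DNAJB11 (5.62 −/− titled, 6.10 +/+ titled, −0.50), and of the disulfide isomerase gene *Pdia4* (7.17 −/− titled, 7.59 +/+ titled, −0.45). *Sdf2l1* was the only one of the 23 past the limit, against 12.0% of all genes higher and 8.60% lower by more than 0.5. Above the median level, where 20 of the 23 lay, these shares were 1.90% and 0.646%. *Sdf2l1* itself was in the middle range, where 2.39% of all genes were lower by that much. The direction was not shared by *Ddit3*, the CHOP factor of prolonged stress (7.12 −/− titled, 6.83 +/+ titled, 0.27), or by *Atf4*, the factor upstream of it (0.12).

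The element through which this response acts, CCAAT and CCACG with 9 bases between them, was searched for on both strands. It was in 0.119% of all windows and in 3 of the 74, which belong to *Hspa5*, *Hsp90b1* and *Dnajc3*, with differences of −0.10, 0.058 and −0.079. The stretches of *Hspa5* (chr2:34771940-34772089, plus strand) and *Hsp90b1* (chr10:86705445-86705594, minus strand) are shown because they carry the element in opposite orientations, in capitals.
Hspa5: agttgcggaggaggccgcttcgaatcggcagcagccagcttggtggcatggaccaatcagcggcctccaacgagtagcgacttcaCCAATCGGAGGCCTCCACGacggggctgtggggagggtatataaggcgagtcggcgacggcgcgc
Hsp90b1: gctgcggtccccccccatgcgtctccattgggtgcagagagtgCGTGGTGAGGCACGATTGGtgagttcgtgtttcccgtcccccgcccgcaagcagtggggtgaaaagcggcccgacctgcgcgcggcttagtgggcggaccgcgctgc

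Genes known to be raised by heat did not lie to one side. Of the 21 measured, 10 were higher and 11 lower on the −/− titled array, and the median was −0.0022. Of them, 2 were higher by more than 0.5 (against 12.0% of all genes) and 0 lower by that much (against 8.60%). The 2 were *Hspb1* and *Hspb8*. Of the 21, 18 had a mean level above the median, where the shares of all genes were 1.90% higher and 0.646% lower. Of the 58 genes with a promoter window, the 17 with the 2-unit heat shock element had differences of −0.15 to 1.02 with a median of 0.054, and 3 of 17 passed 0.5. The 41 without it had a median of −0.011, and 3 of 41 passed 0.5. Over all genes, 12.0% were higher by more than 0.5. The 3 with the element were *Hspb1*, *Hspb3* and *Hspb8*, and the 3 without it were *Hspb7*, *Dnajc17* and *Hspa1l*. *Dnajc17* and *Hspa1l* were in the low level range, and *Hspa1l* was listed at 0 on the +/+ titled array. Of the factors that act on the element, *Hsf1* was not among the genes measured. *Hsf2* had 1.04 on the −/− titled array and was listed at 0 on the +/+ titled array. *Hsf4* had 4.65 on the −/− titled array and 4.46 on the +/+ titled array (0.17), so both were in the low level range. *Hsbp1*, the gene of a protein that binds such factors, had 10.11 on the −/− titled array and 10.06 on the +/+ titled array (0.031).

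The other partners were close to level. Of 15 genes of mitochondrial folding and proteolysis, 3 were higher and 12 lower on the −/− titled array and none passed 0.5, from −0.31 for *Clpx* to 0.15 for *Trap1*, the mitochondrial HSP90, with a median of −0.034. The 26 cochaperones of HSP70 and HSP90 were split 13 to 13, from −0.30 for *Sugt1* to 0.23 for *Fkbp5*, with a median of −0.0043. Of the 14 genes of prefoldin and tubulin folding, 11 were higher and 3 lower on the −/− titled array, with a median of 0.053. The largest differences were 0.21 for *Tbcb* and 0.20 for *Pfdn2*. Immediate-early genes, which respond within minutes to handling of tissue, were lower on the −/− titled array for 9 of 10, with a median of −0.56. *Fos* had 7.73 on the −/− titled array and 9.09 on the +/+ titled array (−1.38), and *Atf3*, the exception, had 5.59 on the −/− titled array and 4.69 on the +/+ titled array (0.88). The part of these genes, and of the lung markers, in the chaperone differences was not tested.

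**Figure D4:**
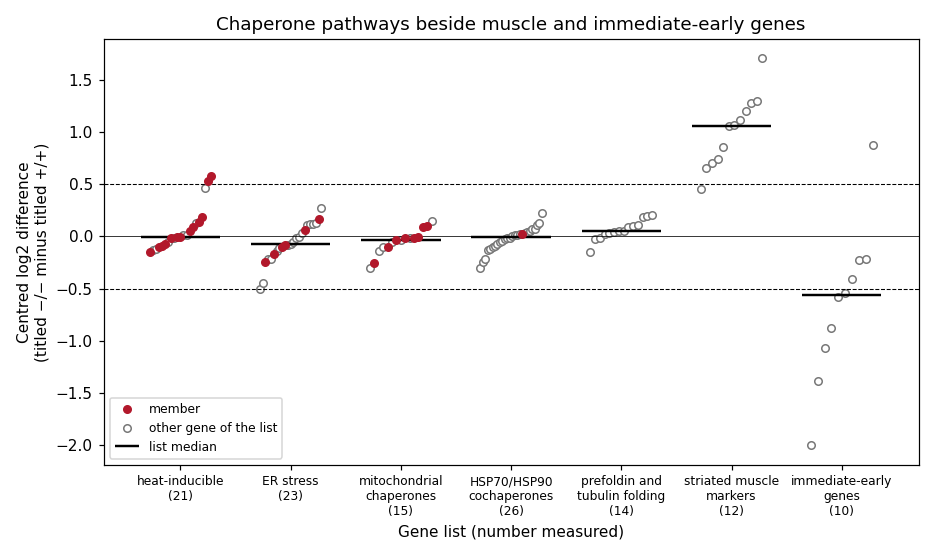
Centred log2 difference (−/− titled minus +/+ titled) of each measured gene by list, with filled points for genes of the chaperone set, open points for other genes and a bar at the median of the list. The striated muscle markers lie above zero, while the medians of the heat-inducible, endoplasmic reticulum, mitochondrial and cochaperone lists lie between −0.069 and −0.0022.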

How the data were processed

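The authors labelled cRNA with biotin and hybridised it to Affymetrix MOE430A arrays. Their methods name MAS5.0, RMA and multi-mgMOS without saying which program gave the series table. It was deposited on a log2 scale with 1 level for each probe set, from 0 to 13.64. The base and the exact zeros were read from the values, and scaling and centring between arrays are not stated.

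Of 22690 probe sets, 64 controls were left out, 20380 name 1 gene (20351 matched to RefSeq, GRCm38.p6), 691 name several and 1555 none. Differences were centred on the median. The 3 level ranges were set at equal shares of the probe sets of genes with several. The SD between probe sets was pooled over genes with several in the same range. The members and lists were chosen with earlier results of these data known, and the grouping of 5 small heat shock protein genes likewise. Genes named are *Hspb1* and *Dnajb7*, small heat shock protein and CCT genes, the 10 largest differences in each direction above the median level, heat-inducible and endoplasmic reticulum genes, and members listed at 0 or past 1. Others were named after their values were seen, to complete each family.

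Alternatives were no centring, quantile and loess normalization (span 0.3), a floor at the 25th percentile, the mean over probe sets, no _x_at or _s_at probe sets, genes above the median level only and a limit of 1. The set without the 5 genes and the MEF2 search were added after the data were seen. Protein sequences were not used here. The number of arrays limits the precision. Steps were tested on simulated arrays. Software was matplotlib 3.10.9, statsmodels 0.14.6, scipy 1.17.1, pandas 2.3.3 and numpy 2.4.6 under Python 3.11.15.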

Additional observations from a re-analysis of the deposited data

How the results depend on the processing

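The count of chaperone genes higher by more than 0.5 on the −/− titled array, 8, became 2 with genes above the median level only, 4 with a limit of 1 and 3 without the 5 small heat shock protein genes. It was 11 with the mean over probe sets, 6 with the floor and 7 without _x_at and _s_at probe sets. The count lower by more than 0.5, 1, became 2 with quantile normalization, with loess and without _x_at and _s_at probe sets, and 0 with the floor, with genes above the median level only and with a limit of 1. Without _x_at and _s_at probe sets the median of HSP60 and HSP10 was 0.17 in place of 0.043, and with genes above the median level only that of the Hspb genes was 0.28 in place of 0.58. With genes above the median level only, with a limit of 1 and without the 5 genes, fewer genes enter or pass by construction. Without _x_at and _s_at probe sets *Hspe1* was read on its other probe set (0.25), which moved the median of HSP60 and HSP10. The causes of the other changes were not tested. *Hspa1l* came to 0 with the floor (2.21 otherwise), and *Dnajc17* to −0.022 without _x_at and _s_at probe sets (3.07 otherwise). Of 305 values of 45 named members, 285 stayed within the error between probe sets and 18 moved past it, 16 of them with the mean over probe sets. In all 21 changed sign, 9 of them with that mean, among them *Cct3* (0.48), *Hspb11* (0.77), *Hspa8* (0.33) and *Cct4* (−0.25). The 5 small heat shock protein genes stayed above 0 in all 32 of their values, between 0.52 and 1.57. No paired analysis was possible because there is 1 array per title. Signal near background limits the 10 members of the low level range.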

Other observations

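Several chaperone genes had a dim probe set that departed from the bright one. *Hspb11* gave 1.56 on its dim probe set (4.88 −/− titled, 3.29 +/+ titled) and −0.011 on the bright one, *Cct3* gave 2.42 (3.39 −/− titled, 0.94 +/+ titled) against −0.057, and *Cct4* gave −1.55 (2.56 −/− titled, 4.09 +/+ titled) against 0.021. The 70 genes have 146 probe sets in all. The shares set beside their counts are of genes, each read on its brightest probe set. In the low level range 12 of 33 were higher by more than 0.5 (against 30.3% of all genes there) and 4 of 33 lower (against 23.6%). In the middle range 8 of 52 were higher by more than 0.5 (against 4.89%) and 1 lower (against 2.39%). In the high range 2 of 61 were higher by that much (against 1.77%) and 0 lower (against 0.509%). Both of these 2 read *Hspb1*.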
